A study of Mus musculus with 2 samples.

Results

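Sox5, Sox6 and Sox9, the transcription factors known as the chondrogenic trio, were described in single cells of the mouse knee joint. The members were the 3 genes of that name among the 32245 gene columns of the 2 libraries, so all 3 were measured. Control cells were from Stat3fl/fl mice, whose Stat3 alleles are both floxed and which lack Cre. Mutant cells were from Acan-Cre+/Cre;Stat3fl/fl mice, in which a tamoxifen-dependent Cre sits in 1 copy of the aggrecan gene Acan, to delete the floxed Stat3 in cells that use Acan. Both libraries were from female mice of 1 month, with tamoxifen given in the first days after birth. Each was a single pool of cells from a few animals, sorted as live cells without CD31, Ter119 or CD45. Because there was 1 library per genotype, the spread between animals was not measured, nothing was tested, and each difference describes these libraries alone.

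SOX9 belongs to the SoxE group and is required for cells to become chondrocytes and to keep making cartilage matrix. It activates Col2a1, Acan and many other matrix genes through its own activation domain. SOX5 and SOX6 belong to the SoxD group, have no activation or repression domain of their own, and bind beside SOX9 to strengthen its action at cartilage enhancers. They are known for keeping columnar chondrocytes proliferating and for holding back prehypertrophy, and SOX6 also acts outside cartilage, as a regulator of globin genes in red cell precursors.

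Sox5 (ENSMUSG00000041540) spans 954 kb of chromosome 6 on the minus strand (143828425 to 144781977; GRCm38, Gencode M21). Sox6 (ENSMUSG00000051910) spans 568 kb of chromosome 7, from 115470872 to 116038796, also on the minus strand. Sox9 (ENSMUSG00000000567) is compact, with 5.54 kb of chromosome 11 from 112782224 to 112787760 on the plus strand. The annotation lists 14 transcripts for Sox5, 16 for Sox6 and 1 for Sox9. No protein-coding gene overlaps any of the 3, but 5 antisense genes lie within Sox5 and 2 within Sox6. Of the Sox5os and Sox6os antisense genes and the sense intronic transcript Sox5it, the highest level in marked cells of either library was 0.632 CPM, for Sox6os in the control, so these neighbours held few counts.

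Promoter windows in RefSeq (GRCm38.p6) matched Sox5 at 1 start site, which lies inside the annotated span, and Sox6 at 6. Sox9 had no entry. Since the targeted gene encodes a STAT factor, the 250 bases before each start were searched for the STAT-type letters TTCNNNGAA, which read the same on both strands, and for the SOX-type letters ACAAAG on either strand. The STAT-type letters stood in 7.02% and the SOX-type letters in 16.5% of all 32851 such windows. The Sox5 window held neither, and 2 of the 6 Sox6 windows held the STAT-type letters, each with the SOX-type letters at another position. These 3 windows are shown in the direction of transcription, with the matches in capitals: Sox5 at chr6:143947107-143947356, then the pair of Sox6 windows at chr7:116031048-116031297 and chr7:115846141-115846390, all on the minus strand.
Sox5: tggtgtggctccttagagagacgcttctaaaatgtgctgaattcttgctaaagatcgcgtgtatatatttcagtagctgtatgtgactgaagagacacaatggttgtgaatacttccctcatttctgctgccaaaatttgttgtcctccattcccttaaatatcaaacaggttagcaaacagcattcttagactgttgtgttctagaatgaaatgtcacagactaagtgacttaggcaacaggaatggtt
Sox6 at the upstream start: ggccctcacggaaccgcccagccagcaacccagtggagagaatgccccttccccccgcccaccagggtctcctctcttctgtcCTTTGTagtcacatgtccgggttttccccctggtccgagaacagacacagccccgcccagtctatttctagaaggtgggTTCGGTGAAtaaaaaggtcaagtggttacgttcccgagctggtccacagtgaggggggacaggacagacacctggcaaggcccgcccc
Sox6 at the downstream start: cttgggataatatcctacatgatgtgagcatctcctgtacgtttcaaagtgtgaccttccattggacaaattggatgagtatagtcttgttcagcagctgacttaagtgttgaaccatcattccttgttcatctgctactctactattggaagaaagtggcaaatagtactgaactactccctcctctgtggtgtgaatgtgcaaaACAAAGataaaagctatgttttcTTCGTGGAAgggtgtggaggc
The STAT-type letters began at base 163 of the upstream and base 230 of the downstream Sox6 window, counted from the 5′ end. A match of letters is a description of the sequence and says nothing about binding.

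The control library held 4903 cells and the mutant library 1340, with medians of 4344 and 3743 estimated unique molecular identifiers (UMIs) per cell. Cells with over 5% mitochondrial counts were 14.2% of the control and 36.7% of the mutant library. The libraries shared 2 cell barcodes, none of them among marked cells. Marked cells are those the authors selected, and in the files the mark was carried by exactly the cells above 0 for Sox9 and Col2a1 with all 4 globin genes at 0. It was carried by 501 control cells (median 5876 UMIs) and 332 mutant cells (median 8595 UMIs). Because no marked cell has Sox9 at 0, a second set was formed that used no Sox gene, no Col2a1 and no Acan: cartilage-gated cells carried at least 3 of 7 other cartilage matrix markers and the marker set of no other cell type. This gave 941 control cells (median 4676 UMIs) and 283 mutant cells (median 8207 UMIs). Col2a1 and Acan, which were not used, stood at 43557 and 4546 CPM (counts per 1000000) in these control cells, against 229 and 351 CPM in tendon-gated cells. The targeted gene Stat3 was at 142 CPM in control and 103 CPM in mutant marked cells, and 3′ counts cannot tell deleted from intact copies of the transcript.

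Sox9 marked cartilage most sharply of the 3 genes across cell classes in the control library. It was at 865 CPM in cartilage-gated cells and was above 0 in 79.6% of them (exact Clopper-Pearson 95% interval 76.9% to 82.1%, as for all shares below, covering counting error only). The next classes were tendon-gated cells at 77.2 CPM, marrow stromal-gated cells at 72.5 CPM, fibroblast-gated cells at 54.3 CPM and osteoblast-gated cells at 52.8 CPM. The shares of cells above 0 in these 4 classes ran from 15.1% to 22.5% with overlapping intervals, and their order was not tested. Erythroid-gated cells, which should lack Sox9, were at 1.27 CPM. Of these 1772 control cells, 0.790% were above 0 (0.433% to 1.32%), at a median depth of 5874 UMIs. In the mutant library they were at 30.7 CPM, with 2.60% of 77 cells above 0. The shares above 0 in control tendon, marrow, fibroblast and osteoblast cells were higher than the erythroid share of that library. The part of free RNA or of doublets in these Sox9 levels was not tested.

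Sox5 had a second class with a high level. In the control library it was at 313 CPM in cartilage-gated cells and at 266 CPM in fibroblast-gated cells, a class defined by Dpt, Pi16, Dpp4, Pdgfra and Cd34. The share above 0 was 66.2% (63.1% to 69.2%) in the first and 37.6% (32.7% to 42.7%) in the second. After each cell was thinned to 2000 UMIs, so that depth was equal, the shares were 41.6% of 805 cells and 29.4% of 344 cells, and in erythroid-gated cells 2.83%. Only 7.47% of fibroblast-gated control cells were above 0 for both Sox5 and Sox9, close to the 7.22% that the product of the separate shares gives, so Sox5 in these cells was mostly seen without Sox9. Mural-gated cells followed at 92.5 CPM, tendon-gated cells at 36.6 CPM and marrow stromal-gated cells at 25.1 CPM, with overlapping intervals of their shares. Osteoblast-gated cells were lowest, at 10.4 CPM, with 6 of 151 cells above 0.

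Sox6 was highest outside cartilage. Erythroid-gated control cells had 233 CPM of Sox6, with 66.3% of 1772 cells above 0 (64.1% to 68.5%), and the 77 erythroid-gated mutant cells had 592 CPM with 54.5% above 0 (42.8% to 65.9%) at a lower median depth of 1301 UMIs. Cartilage-gated control cells came next at 135 CPM, with 43.7% above 0 (40.5% to 46.9%). Tendon-gated cells were at 45.1 CPM, fibroblast-gated cells at 44.6 CPM and osteoblast-gated cells at 32.1 CPM, with shares of 15.0%, 13.6% and 11.3% whose intervals overlapped. Marrow stromal-gated cells, at 13.1 CPM and 3.23% of 93 cells, and mural-gated cells, at 11.8 CPM and 2.82% of 71 cells, were lowest.

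Sox6 was also set against globin in the same cells. Erythroid-gated control cells with globin had 23.1 Sox6 UMIs per 1000 globin UMIs, and the mutant ones had 37.9. In the control library the ratio was 616 in cartilage-gated cells with globin, 145 in tendon-gated cells, 134 in fibroblast-gated cells, 53.9 in osteoblast-gated cells, 43.6 in mural-gated cells and 18.2 in marrow stromal-gated cells. The part of red cell RNA in the Sox6 level of these classes was not tested. Cartilage-gated control cells without any globin had 115 CPM of Sox6, against 163 CPM in those with globin. Cells without globin were deeper, at a median of 5665 UMIs against 3848 UMIs, and the part of free RNA in this gap was not tested.

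**Figure D1:**
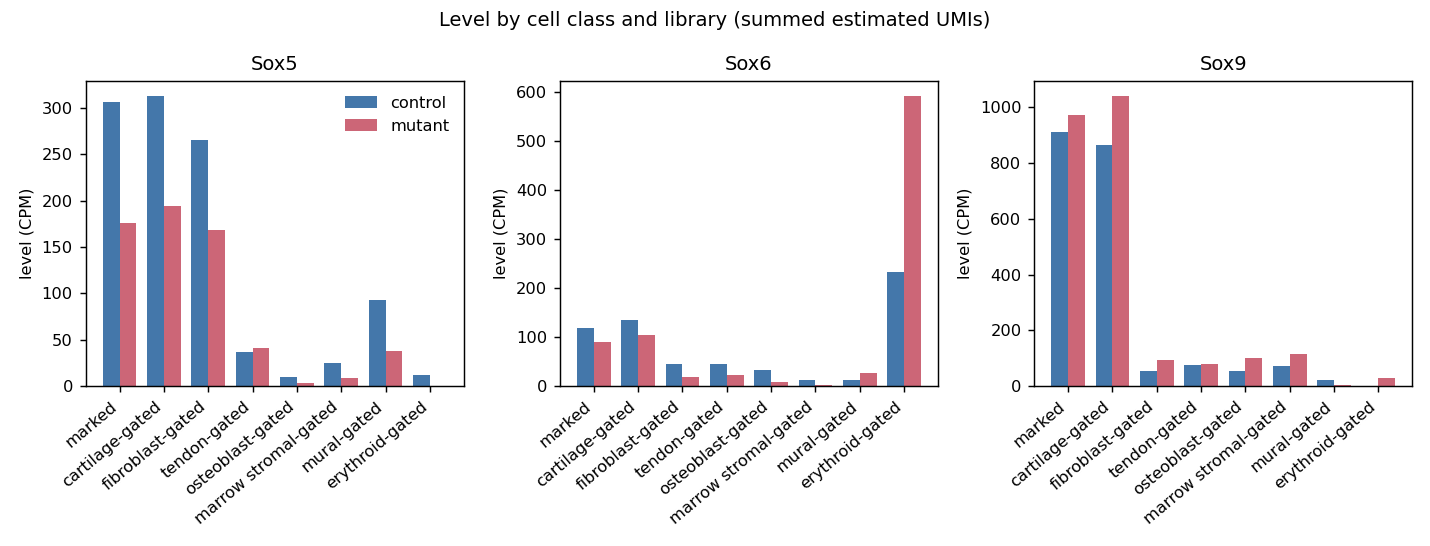
Level of each gene in CPM (vertical axis from 0, a different scale in each panel) by cell class, with blue bars for the control and red bars for the mutant library; each bar is 1 library, so there is no error bar. Sox9 stands high in the marked and cartilage-gated cells alone, Sox5 also in fibroblast-gated cells, and Sox6 is highest in erythroid-gated cells, at 233 CPM (control) and 592 CPM (mutant).

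The main comparison asked whether the levels of the trio differed between the genotypes in chondrocytes. Sox5 was lower in the mutant library, Sox6 was lower by less, and Sox9 differed little. In marked cells Sox5 was at 307 CPM in control and 176 CPM in mutant cells, a log2 ratio of -0.80. Sox6 was at 118 CPM and 89.5 CPM, a log2 ratio of -0.40. Sox9, for which the mark requires a value above 0, was at 910 CPM and 973 CPM, a log2 ratio of 0.10. Thus 1 of the 3 genes was lower in the mutant by at least 0.5 on the log2 scale, the size used as the fold limit here, and none was higher by as much. Among all 8117 genes that reached 10 CPM in either library, 27.2% were lower and 14.2% were higher by that size, so a single lower gene among 3 is near the background. The median log2 ratio over genes of at least 10 CPM in both libraries was -0.16, and relative to this shift the values were -0.63 for Sox5, -0.23 for Sox6 and 0.26 for Sox9. Ranked among the tested genes, 12.4% had a lower log2 ratio than Sox5, 34.0% a lower one than Sox6 and 67.8% a lower one than Sox9.

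Fewer mutant cells carried Sox5, in spite of their greater depth. Sox5 was above 0 in 372 of 501 marked control cells (74.3%, 70.2% to 78.0%) and in 192 of 332 marked mutant cells (57.8%, 52.3% to 63.2%). Every cell was then thinned to 2000 UMIs, and 34 control and 32 mutant cells of lower depth were set aside. Sox5 was above 0 in 41.3% (36.8% to 45.9%) and 27.0% (22.1% to 32.4%) of these cells, with intervals that did not overlap. The share of all genes with intervals apart in this way was not measured, so the gap is a description of Sox5 only. Sox6 was above 0 in 47.9% and 47.0% of marked cells, and thinning separated these shares to 23.3% (19.6% to 27.4%) and 16.7% (12.6% to 21.4%), with intervals that overlapped. For Sox9 the thinned shares were 77.9% (73.9% to 81.6%) and 74.7% (69.3% to 79.5%).

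The same order was seen in cartilage-gated cells, in which Sox9 was free to vary. Many of these cells are also marked, so the sets are not independent. Sox5 was at 313 CPM in control and 194 CPM in mutant cells, a log2 ratio of -0.69, and Sox6 at 135 CPM and 105 CPM, a log2 ratio of -0.36. Sox9 was at 865 CPM and 1042 CPM, a log2 ratio of 0.27. Sox9 was above 0 in almost the same share of cells, 79.6% of control and 80.2% (75.1% to 84.7%) of mutant cells, and after thinning in 69.9% (66.6% to 73.1%) and 70.7% (64.4% to 76.5%). Thinned shares of Sox5 were 41.6% (38.2% to 45.1%) and 33.2% (27.1% to 39.7%), and those of Sox6 were 24.3% (21.4% to 27.5%) and 20.1% (15.1% to 25.9%), with overlapping intervals for both genes. Globin was carried by 485 of the control cells, whereas 281 of the 283 mutant cells had none. In the cells without globin the log2 ratios were -0.72 for Sox5, -0.16 for Sox6 and 0.21 for Sox9. In the full sets 1 of the 3 genes, Sox5, was again lower by at least 0.5, against 30.0% of 7997 genes. None was higher, against 12.2%. Scaling by the median of all ratios brought Sox5 in these cells to -0.495, just short of the limit. It brought Sox6 to -0.17 and Sox9 to 0.46, so Sox9 was then nearly as far from 0 as Sox5.

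**Figure D2:**
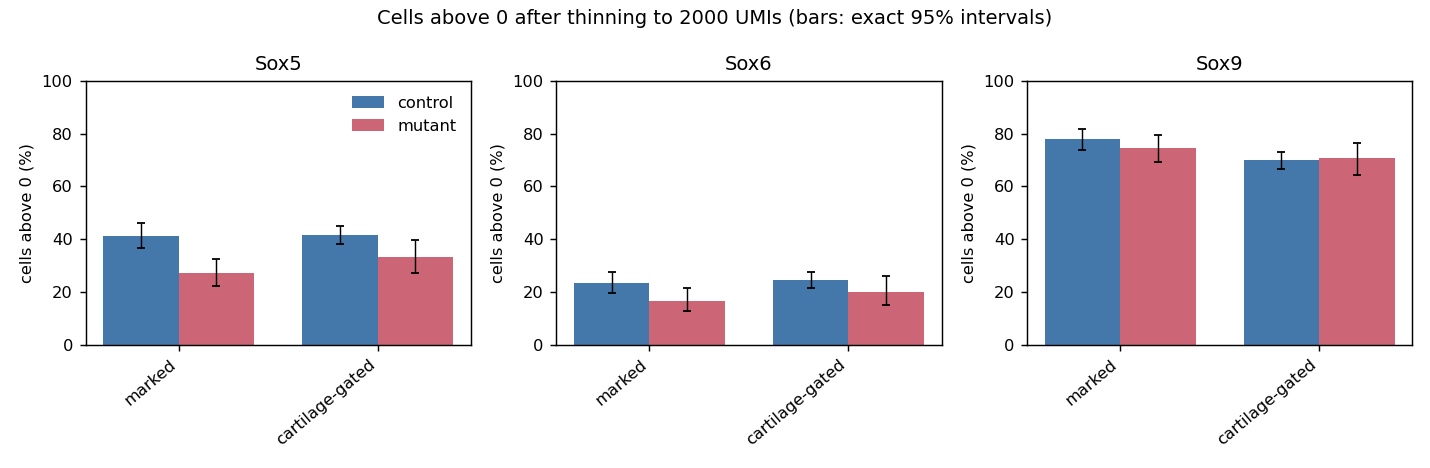
Percent of cells above 0 for each gene after every cell was thinned to 2000 UMIs (vertical axis from 0 to 100), in marked and cartilage-gated cells of the control (blue) and mutant (red) library; whiskers are exact 95% intervals for counting error. The gap between libraries is widest for Sox5 in marked cells, 41.3% against 27.0%, and the Sox9 bars are nearly level.

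The marked cells were then divided by articular markers (at least 2 of Prg4, Cilp, Cilp2, Creb5 and Erg) and growth cartilage markers (at least 3 of Epyc, Ucma, Matn1, Matn3 and Snorc). In 304 control and 130 mutant cells with growth cartilage markers alone, Sox5 was at 323 CPM and 172 CPM, a log2 ratio of -0.91, while Sox6 was at 94.5 CPM and 101 CPM, a log2 ratio of 0.09. In 87 control and 67 mutant cells with articular markers alone, Sox6 was at 213 CPM and 84.6 CPM, a log2 ratio of -1.32. Sox5 gave no clear direction in these articular cells. Its level from summed UMIs was 239 CPM and 257 CPM, a log2 ratio of 0.10, but its mean over cells was 289 CPM and 253 CPM, and it was above 0 in 35.5% (24.9% to 47.3%) of thinned control and 28.6% (17.9% to 41.3%) of thinned mutant cells. Sox6 was above 0 in 40.8% (29.6% to 52.7%) of thinned control and 9.52% (3.58% to 19.6%) of thinned mutant articular cells, and in 16.4% (12.5% to 21.1%) and 21.4% (14.6% to 29.6%) of growth cartilage cells. Sox5 was above 0 in 45.1% (39.4% to 50.8%) of thinned control and 34.9% (26.6% to 43.9%) of thinned mutant growth cartilage cells.

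Within the control library, Sox6 was therefore higher in articular than in growth cartilage cells, by 1.17 on the log2 scale, whereas Sox5 was lower by 0.43 and Sox9 differed by -0.09. In the mutant library the same differences between articular and growth cartilage cells were -0.25 for Sox6, 0.58 for Sox5 and 0.57 for Sox9. In articular cells the level of Sox9 was 872 CPM in control and 1418 CPM in mutant cells, a log2 ratio of 0.70. Its thinned shares there, 72.4% (60.9% to 82.0%) and 79.4% (67.3% to 88.5%), overlapped. Whether the ratios differ between articular and growth cartilage cells was not tested, as each rests on 1 library per genotype.

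Marked cells with neither marker set had all 3 genes lower in the mutant by at least 0.5 on the log2 scale. The share of all genes lower by that size was not measured in these cells or in the marked osteoblast-gate cells below. The count is therefore no result about the trio. Cells with neither set made up 12.6% of marked cells in the control (63 cells) and 26.2% in the mutant library (87 cells). Sox5 was at 224 CPM and 37.7 CPM, Sox6 at 156 CPM and 46.2 CPM, and Sox9 at 718 CPM and 397 CPM, with log2 ratios of -2.54, -1.73 and -0.85. Thinned shares were 32.5% and 9.52% for Sox5, 32.5% and 11.1% for Sox6, and 65.0% and 55.6% for Sox9. The intervals of these shares overlapped for each gene. As a mean over cells, Sox9 was at 943 CPM and 761 CPM. Marked cells that also passed the osteoblast gate went the same way, and they were 4.19% of control (21 cells) and 12.0% of mutant marked cells (40 cells). In them Sox5 was at 180 CPM and 90.1 CPM, Sox6 at 143 CPM and 40.4 CPM, and Sox9 at 748 CPM and 479 CPM. When only the marked cells that passed the cartilage gate and no other were kept, 399 control and 224 mutant cells, the log2 ratio was -0.75 for Sox5, -0.14 for Sox6 and 0.21 for Sox9. The Sox5 difference was thus nearly as large in these cells, and the Sox6 difference was smaller. This set also leaves out marked cells that passed no gate. When only the cells of another gate were left out, the log2 ratio was -0.74 for Sox5 and -0.19 for Sox6.

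Maturation and division were looked at in the same way. Marked cells with at least 2 of the prehypertrophic markers Ihh, Col10a1, Pth1r, Panx3 and Sp7 numbered 106 and 65. Sox5 was at 252 CPM and 158 CPM in them, a log2 ratio of -0.67, and at 330 CPM and 183 CPM in the other marked cells, a log2 ratio of -0.85. Growth cartilage cells without prehypertrophic markers had 364 CPM of Sox5 in the control against 156 CPM in the mutant, a log2 ratio of -1.22. Those with such markers had 257 CPM and 196 CPM, a log2 ratio of -0.39. Thinned shares of Sox5 were 47.6% (40.7% to 54.6%) and 32.5% (22.4% to 43.9%) without such markers, with overlapping intervals. With such markers they were nearly level, at 39.4% and 39.1%. Sox6 and Sox9 differed by less than 0.3 in either of these subsets. Cycling markers were carried by 49 control and 8 mutant cells, and without cycling cells the log2 ratio of Sox5 was -0.82.

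**Figure D3:**
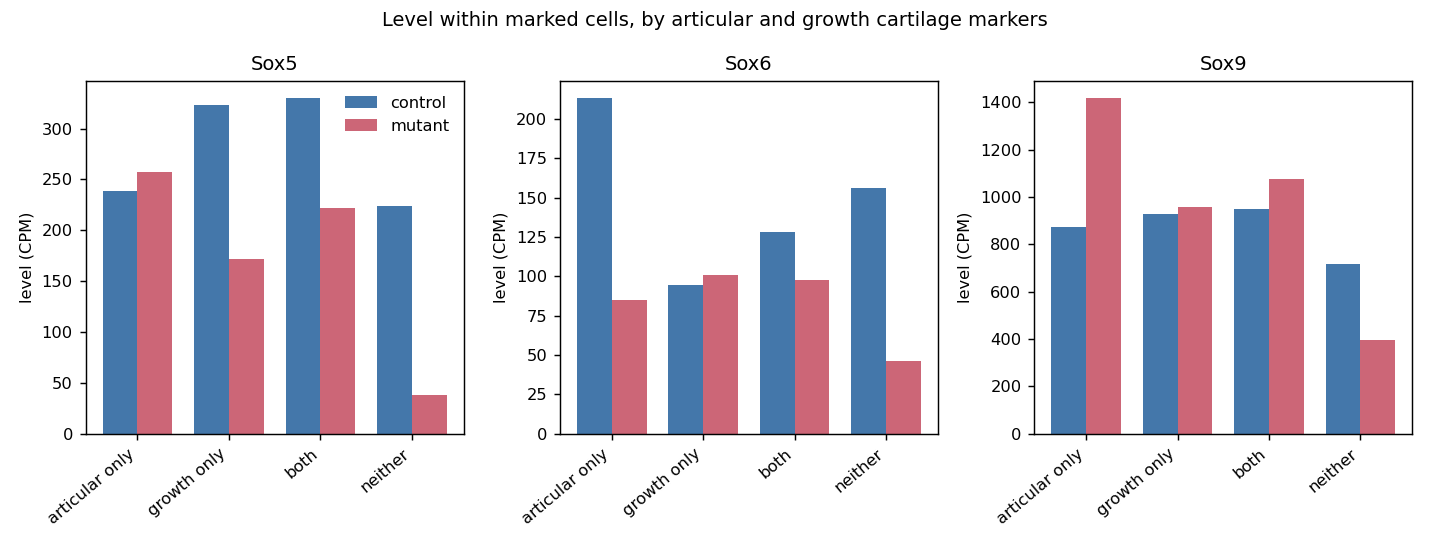
Level of each gene in CPM (vertical axis from 0, a different scale in each panel) in marked cells with articular markers only, growth cartilage markers only, both or neither, for the control (blue) and mutant (red) library; each bar is 1 library without a replicate. The mutant bar of Sox5 is lower than the control bar in growth cartilage cells (172 against 323 CPM), and in articular cells the bars stand at 257 CPM (mutant) and 239 CPM (control), where the mean over cells had the opposite order. The mutant bar of Sox6 is lower in articular cells (84.6 against 213 CPM) and close to the control bar in growth cartilage cells (101 against 94.5 CPM).

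Co-detection asked how often a cell carried more than 1 member. In marked cells, all of which carry Sox9, 38.3% of control cells (34.0% to 42.7%) and 34.9% of mutant cells (29.8% to 40.3%) had both Sox5 and Sox6. Sox9 stood alone in 16.2% of control (13.1% to 19.7%) and 30.1% of mutant marked cells (25.2% to 35.4%). Cells with Sox5 but not Sox6 were 35.9% and 22.9%, and cells with Sox6 but not Sox5 were 9.58% and 12.0%. At equal depth of 2000 UMIs, Sox5 and Sox6 were seen together in 9.64% of control cells (7.12% to 12.7%) and 4% of mutant cells (2.08% to 6.88%). These shares were close to the products of the separate shares, 9.65% and 4.50%. In control cells with Sox9, Col2a1 and a globin value, which are unmarked, the share with both was 12.2% (9.34% to 15.6%) and the product 9.19%.

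In cartilage-gated cells all 3 genes were above 0 in 29.0% of control (26.1% to 32.0%) and 35.7% of mutant cells (30.1% to 41.6%), whereas at equal depth the shares were 7.45% (5.74% to 9.49%) and 4.80% (2.42% to 8.43%). The mutant share was the higher one at full depth, where mutant cells had more UMIs, and the lower one at equal depth, with overlapping intervals. At equal depth Sox9 alone was the most frequent combination, in 31.4% of control (28.2% to 34.8%) and 38.9% of mutant cells (32.5% to 45.5%). Sox5 with Sox9 came next, in 22.6% and 18.3%, then Sox6 with Sox9, in 8.45% and 8.73%. None of the 3 was seen in 13.3% and 14.4%.

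**Figure D4:**
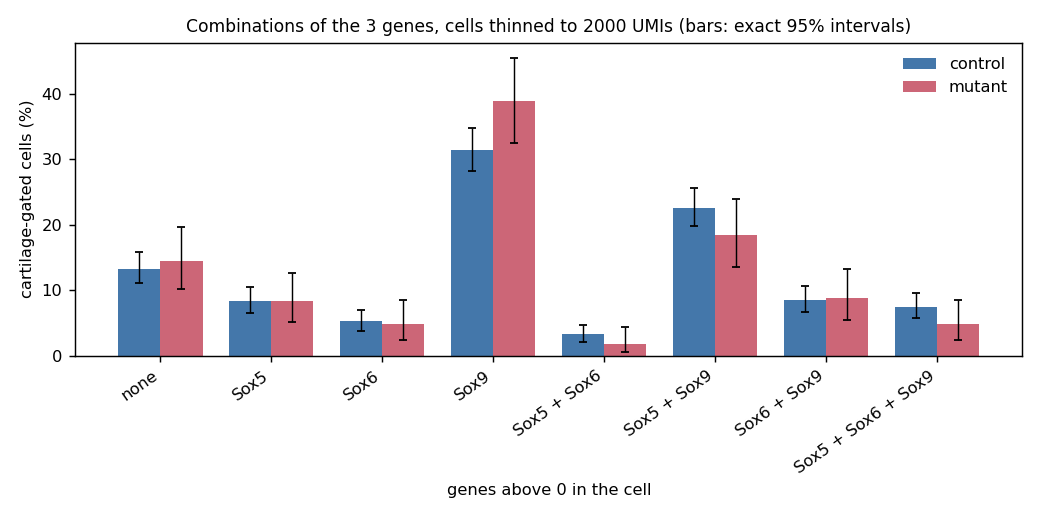
Percent of cartilage-gated cells (vertical axis from 0) with each combination of the 3 genes above 0 after thinning to 2000 UMIs, in the control (blue, 805 cells) and mutant (red, 229 cells) library, with exact 95% intervals. Sox9 alone is the tallest pair of bars at 31.4% and 38.9%, and the intervals of the libraries overlap in all 8 combinations.

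Cells with more Sox9 were also compared with cells with less, at equal depth. In marked control cells, Sox5 was above 0 in 34.95% of 103 cells with no thinned Sox9 UMI and in 44.4% of 144 cells with 3 or more, with intervals of 25.8% to 45.0% and 36.2% to 53.0%. Sox6 went the other way, from 31.1% (22.3% to 40.9%) to 17.4% (11.6% to 24.6%). In marked mutant cells Sox5 was above 0 in 22.4% of 76 and 39.2% of 74 such cells, and Sox6 in 10.5% (4.66% to 19.7%) and 21.6% (12.9% to 32.7%). All these pairs of intervals overlapped, which does not decide whether the shares differ, and no difference within a library was tested.

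Col2a1-positive cells outside the mark fell into classes that the mark itself made. In the control library 512 of them carried Sox9 and a globin value, which kept them unmarked. Their levels were near those of marked cells, as Sox5 was at 270 CPM, Sox6 at 155 CPM and Sox9 at 843 CPM. The mutant library had 3 such cells, too few for a level. In the cells without globin, Sox9 is 0 by construction. Of these, 231 control cells had 107 CPM of Sox5 and 110 CPM of Sox6, and 350 mutant cells had 68.5 CPM and 26.8 CPM. Sox6 was above 0 in 19.0% (14.2% to 24.7%) of the control and 7.14% (4.68% to 10.4%) of the mutant cells, at similar medians of 1932 and 2008 UMIs. Col2a1 was itself lower in them, at 12429 CPM against 4872 CPM. Cells with Col2a1 and globin but no Sox9 numbered 710 in the control (median 1557 UMIs) and 48 in the mutant library (median 1190 UMIs). In them Sox5 was at 107 CPM and 14.4 CPM, with 1 mutant cell above 0. Sox6 was at 218 CPM and 493 CPM, a log2 ratio of 1.18, with 19 mutant cells above 0. Its direction was opposite to that in the cells without globin, and 3 mutant cells held 41.2% of its UMIs. Col2a1 was at 10209 CPM and 830 CPM in this class, and Acan at 881 CPM and 14.2 CPM. The control and mutant cells of this class were thus unlike in cartilage genes, and the part of this in the Sox6 ratio was not tested.

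Outside cartilage, the genotypes were compared in fibroblast-, osteoblast- and tendon-gated cells, in which Acan itself was at 23.3, 76.3 and 351 CPM in the control library. In 375 control and 159 mutant fibroblast-gated cells, Sox5 was at 266 CPM and 168 CPM (log2 ratio -0.66), Sox6 at 44.6 CPM and 18.9 CPM (-1.20) and Sox9 at 54.3 CPM and 93.6 CPM (0.77). Thus 2 of the 3 genes were lower by at least 0.5, against 26.8% of 8945 genes, and 1 was higher, against 17.0%. The thinned shares were 29.4% (24.6% to 34.5%) and 16.7% (11.1% to 23.6%) for Sox5, 7.27% (4.76% to 10.5%) and 1.33% (0.162% to 4.73%) for Sox6, and 10.8% (7.69% to 14.5%) and 12.0% (7.27% to 18.3%) for Sox9. In the same cells 3 mutant cells held 22.5% of the Sox5 UMIs, and Stat3 was at 112 CPM and 167 CPM. Sox5 and Sox6 were thus seen in a smaller share of mutant fibroblast-gated cells at equal depth, and Sox9 in a similar one. The mutant Sox6 share rests on 2 of 150 thinned cells and 1 random draw. At full depth the Sox6 shares were 13.6% and 10.7%. A lower Sox5 level in the mutant library was therefore measured in fibroblast-gated cells as well as in chondrocytes, at log2 ratios of -0.66 and -0.69. Globin was carried by 257 of the control fibroblast-gated cells, whereas 157 of the 159 mutant ones had none. Without globin, Sox5 was at 346 CPM in control and 169 CPM in mutant fibroblast-gated cells. Sox6 was at 56.0 CPM and 19.0 CPM in them, and Sox9 at 52.8 CPM and 93.9 CPM.

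Osteoblast-gated cells had little of any member. In 151 control and 120 mutant cells Sox9 was at 52.8 CPM and 102 CPM (log2 ratio 0.93), with 22.5% (16.1% to 30.0%) and 29.2% (21.2% to 38.2%) of cells above 0 and thinned shares of 10.7% and 10.8%. Of its UMIs in the mutant cells, 33.2% were in 3 cells. Sox6 was at 32.1 CPM and 9.31 CPM, and Sox5 was above 0 in 6 control and 3 mutant cells. Here 2 of the 3 genes were lower by at least 0.5, against 33.6% of 8349 genes, and 1 was higher, against 16.6%. In 233 control and 46 mutant tendon-gated cells, Sox5 was at 36.6 CPM and 40.8 CPM and Sox9 at 77.2 CPM and 80.3 CPM, log2 ratios of 0.15 and 0.06. Sox6, at 45.1 CPM and 22.0 CPM, was the 1 gene lower by that size, against 33.4% of 9093 genes, and none was higher, against 26.3%. The mutant tendon value rests on 5 cells above 0 for Sox6. Globin was carried by 136 of the control tendon-gated cells, whereas all 46 mutant ones had none. In control tendon-gated cells without globin, Sox9 was at 98.3 CPM, above the 80.3 CPM of the mutant cells. Sox9 therefore gave no clear direction in tendon-gated cells.

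Genes that the trio is known to bind or activate were taken as a list of 25. In marked cells 24 had at least 10 CPM in either library, and 12 of them were lower in the mutant by at least 0.5, 1 was higher and 11 lay between, beside the 27.2% and 14.2% of all genes. The median log2 ratio of the list was -0.50, and that of all tested genes was -0.18. Acan, which encodes the core protein aggrecan and carries the Cre insertion in the mutant, had the lowest ratio, from 4837 CPM to 1697 CPM (-1.51), followed by the ubiquitin ligase gene Wwp2, from 546 CPM to 247 CPM (-1.14). Papss2, which makes the sulfate donor for proteoglycans, had a ratio of -0.83, and the growth factor receptor gene Fgfr3 one of -0.80. The fibrillar collagen genes Col11a1 (-0.71) and Col11a2 (-0.64), the collagen IX genes Col9a1 (-0.62) and Col9a2 (-0.59), Col27a1 (-0.61), Epyc (-0.71), Trps1 (-0.66) and Cnmd (-0.52) made up the other lower genes. Chad, which encodes the matrix protein chondroadherin, was the higher gene, from 1026 CPM to 1542 CPM (0.59). Col2a1, at 44125 CPM and 31546 CPM (-0.48), was used for the mark.

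In cartilage-gated cells 4 of 24 list genes were lower by at least 0.5 (Acan, Wwp2, Trps1 and Papss2), beside 30.0% of all genes, and Matn1 was the 1 higher gene, at 63.1 CPM and 111 CPM (0.81). The list median was -0.27 and that of all tested genes -0.22, and 7 of the 25 genes had been used for the gate. The lower values of the list were thus closer to those of all genes in this set of cells. Of the proteins that work with SOX9, 4 of 6 genes could be compared in marked cells. The coactivator genes Ep300 (-0.63) and Crebbp (-0.58) and Arid5a (-0.50) were lower, beside 27.2% of all genes. Arid5b was higher (0.61), beside 14.2% of all genes. In cartilage-gated cells the same 3 were lower by at least 0.5, beside 30.0% of all genes, and Arid5b was at 0.41, under the limit. Among the other members of the groups, the SoxE gene Sox8 was at 27.7 CPM and 15.9 CPM (-0.76), and Sox10 and the SoxD gene Sox13 were under 10 CPM in both libraries.

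**Figure D5:**
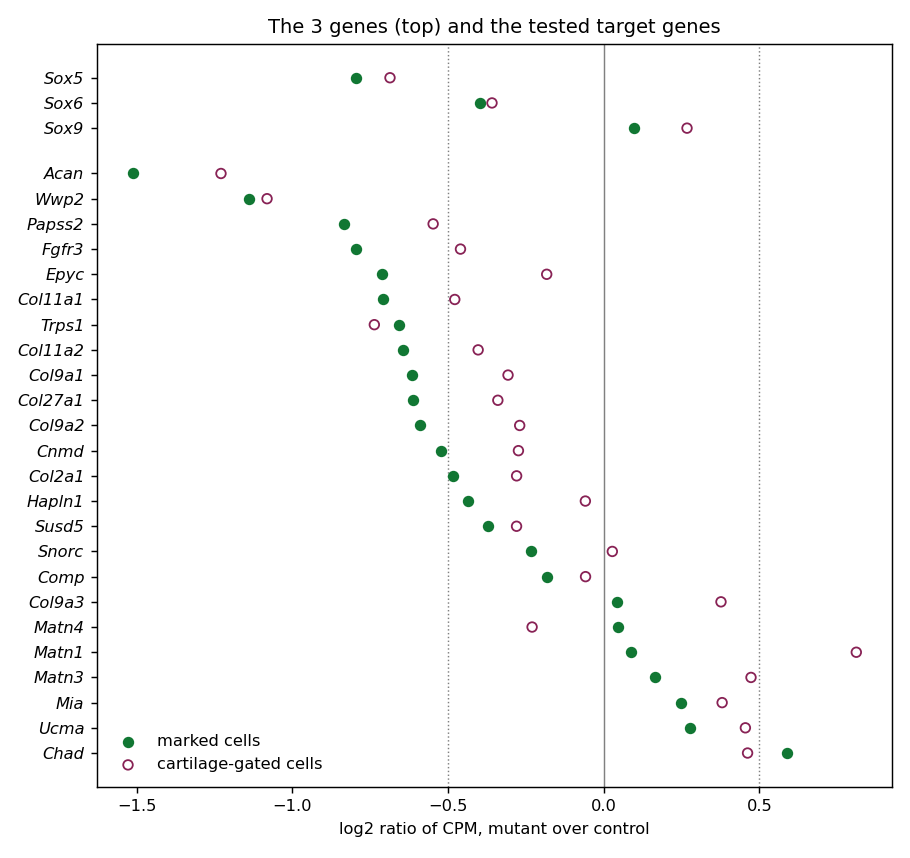
Log2 ratio of CPM, mutant over control (horizontal axis), for Sox5, Sox6 and Sox9 at the top and the 24 tested list genes below, in marked cells (filled) and cartilage-gated cells (open); dotted lines mark 0.5 in either direction and no error is shown, since each point compares 1 library with 1 library. Sox5 lies at -0.80 and -0.69 and Sox9 on the other side of 0, while Acan and Wwp2 lie farthest to the left.

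The genes with profiles most like each member were ranked by Pearson r of log2(CPM + 1) over 21 class-by-library profiles, among 6651 genes. The profiles share libraries and in part cells, and r is given as a description. In 7 of the profiles Sox9 was used to choose the cells, and in 4 of these it is 0 by that choice. The genes were therefore also ranked over the 14 profiles of gated classes alone, a choice made after seeing the data. For Sox5 the genes were Pygl (0.93), Pde4b, Phyh, Pcolce2 and B830012L14Rik (0.88). For Sox6 they were C530008M17Rik (0.94), Clcn3, Spire1, Tmx1 and Cd82 (0.87). Over the 14 profiles, 2 of these 5 genes remained among the top 5 for Sox5 and 4 of 5 for Sox6. For Sox9 the genes over the 21 profiles were Lrrc59 (0.74), Abl2, Ankrd28, Arf2 and Rcan1 (0.69). Over the 14 profiles they were Papss2 (0.96), Sdc4, Abl2, Hivep3 and Me1 (0.88), with 1 gene shared. Between the members, r over the 14 profiles was -0.09 for Sox5 and Sox6, 0.40 for Sox5 and Sox9 and -0.09 for Sox6 and Sox9.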

How the data were processed

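Droplet 3′ single-cell libraries (v3.1) were aligned by the authors to mm10 with STAR 2.7.3a in Partek, counted on Gencode, and corrected for ambient RNA with SoupX. Deposited gene values are on a log2 scale, log2(CPM + 1) in each cell. Each cell's deposited total is an estimated count, the authors give mitochondrial content as a percent, and expressed genes are deposited as a score. Estimated UMIs were recovered from value and total and were not whole (74.9% of control and 97.3% of mutant values within 0.1 of a whole number), so no count model was used.

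UMIs were summed over the chosen cells of each library and divided by their sum (CPM), and log2((mutant + 1)/(control + 1)) was taken, with 0.5 as the fold limit and 10 CPM in either library as the minimum. Shares carry exact 95% binomial intervals. Thinning to 2000 UMIs used rounded UMIs and 1 random draw (seed 1). A cell passed a gate with 2 or 3 of 5 to 7 markers, classes needed 20 cells, and cells passing several gates (389 control, 113 mutant) or none (869 and 409) were in no gated class. No doublet caller was run. Leaving out marked cells that pass another gate was the alternative for doublets. Muscle, leukocyte, endothelial and Schwann gates held too few cells. Named genes were the members, Stat3, Acan, group relatives, the target and partner lists, and the 5 genes most alike in profile. The members and lists were chosen with earlier results of these data known. Python 3.11.15, numpy 2.4.6, scipy 1.17.1 and pandas 2.3.3 were used, and the ratio and thinning steps were tested on simulated data.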

Additional observations from a re-analysis of the deposited data

Results flagged for a closer look

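The level of Sox9 from summed UMIs differed between the libraries in opposite directions in 2 sets of cells. Its log2 ratio, mutant over control, was -0.85 in marked cells with neither articular nor growth cartilage markers and 0.93 in osteoblast-gated cells. At equal depth its control and mutant shares were 65.0% and 55.6% in the former, and 10.7% and 10.8% in the latter. The intervals of these shares overlapped in both sets. With 1 library per genotype the difference was not tested, and in the marked cells a value above 0 for Sox9 is part of the selection.

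Sox6 was seen in cells outside the cartilage comparisons, with 66.3% of erythroid-gated control cells and 54.5% of erythroid-gated mutant cells above 0. The mutant share rests on 77 cells, at a median of 1301 UMIs against 5874 in the control. The sort was set against Ter119, a red cell marker.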

How the results depend on the processing

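Across the other settings tried, the log2 ratio of Sox5 ranged from -0.91 to -0.63 in marked cells and from -0.75 to -0.495 in cartilage-gated cells, that of Sox6 from -0.54 to -0.19 and from -0.45 to -0.16, and that of Sox9 from 0.03 to 0.26 and from 0.16 to 0.46. None changed sign or moved by more than 1.5 times, and neither did the median of the target list, which ranged from -0.58 to -0.25. Sox6 passed -0.5 only when all cells with Sox9 and Col2a1 were used, globin ignored. It came nearest to 0 in marked cells without those that pass another gate (-0.19) and in cartilage-gated cells without a globin value (-0.16). Shares of cells depended on depth. Marked cells with both Sox5 and Sox6 were 9.64% (control) and 4% (mutant) at 2000 UMIs, 4.69% and 1.88% at 1000 UMIs, and 11.4% and 11.7% with at least 2 UMIs of each gene. In cartilage-gated cells all 3 genes were above 0 in 7.45% and 4.80% at 2000 UMIs, in 2.38% and 1.95% at 1000 UMIs, and in 5.95% and 10.95% with at least 2 UMIs of each. At most 5% mitochondrial counts gave 44.1% of mutant cartilage-gated cells with all 3 genes. With Col2a1 at 0, Sox9 was at 53.2 CPM in tendon-gated and 10.9 CPM in erythroid-gated mutant cells, and as a mean over cells it was at 14.9 CPM in the latter. Sox5 was at 110.1 CPM in fibroblast-gated mutant cells as a mean over cells. The cause of these moves other than the depth that thinning and the 2-UMI limit take away was not tested. Leaving out cells of another gate could not alter the cartilage-gated set, which has none. No paired analysis was possible because each genotype has 1 library, and for the same reason no replicate could be left out. Intervals cover counting error only, and pools of animals, the sort and the sequencing run cannot be told apart from the genotype.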
